A study of Mus musculus with 12 samples.

Results

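In cultured diploid mouse embryonic stem cells (ESCs), 1481 autosomal regions of 1 kb carried at least 60% cytosine methylation at early passage and at most 15% at late passage. The assay was reduced representation bisulfite sequencing (RRBS), in which CpG-rich fragments cut by the enzyme MspI are converted and read. A cytosine was kept if it reached 20% in any of the 3 embryo libraries and had a value in both diploid ESC libraries, and a tile needed at least 5 kept cytosines. Of 46121 measured tiles, 34142 were at 60% or more in early diploid ESCs, and the 1481 members made up 3.21% of all measured tiles and 4.34% of those high early.

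The series holds 12 libraries, 1 per group. Androgenetic haploid ESCs (ahESCs, with a genome of sperm origin), parthenogenetic haploid ESCs (phESCs, with a genome of egg origin) and diploid ESCs were each sampled at late and at early passage, and all 6 are labelled wild type. Whole embryos at E15.5 were bimaternal (BM), bipaternal (BP) or wild type (WT), and there were brains of a BM animal at E19.5, of a BM adult and of a WT adult. BM embryos were made by injecting a phESC into an oocyte, and BP embryos by injecting an ahESC with a sperm into an enucleated oocyte. The labels give every BM and BP sample a knockout of differentially methylated regions without naming the regions. Passage numbers, strains, sexes and the number of animals or cell lines behind a library are not given in the sources used here, and nothing ties an embryo to the ESC libraries. With 1 library per group no value has a replicate error and no difference could be tested, so all comparisons below describe these libraries only.

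DNA methylation in mammals sits mainly on cytosines followed by guanine (CpG), and is copied to the new strand after replication by the maintenance enzyme Dnmt1 with its partner Uhrf1. Most of the genome regains methylation in the embryo after implantation, with the enzymes Dnmt3a and Dnmt3b. Imprinted regions differ, since their methylation is set on the egg or the sperm copy in the germline and is then carried through development. Cultured ESCs are known to vary widely in methylation, and imprinted marks can be lost in them.

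The sequences behind several members show how dense and how even the loss was. Each window below comes from the RefSeq promoter table of build GRCm38.p6 (250 bases before to 50 after a gene start) or from coding exons of GENCODE M21. Each was placed on mm9, the build of the deposited file, by its pattern of listed CG and GC positions, without converting coordinates. Capitals mark the CpGs with a kept cytosine on either strand. The promoters were chosen to show an imprinted gene (Snrpn, an mRNA-splicing protein gene), genes known for expression in testis or egg (Dnajc5g, Rpl39l and Nlrp5), a glycine transporter (Slc6a9) and a dynein heavy chain of cilia (Dnah6). Arid5b, a DNA-binding regulator, and Zfp334, a zinc finger protein, are shown as coding exons with many measured CpGs. The mm9 positions are chr7:67150036-67150335 (minus strand) for Snrpn, chr5:31410442-31410741 (plus) for Dnajc5g, chr16:10170071-10170370 (plus) for Rpl39l and chr7:24170658-24170957 (plus) for Nlrp5. They are chr4:117521705-117522004 (plus) for Slc6a9, chr6:73171576-73171875 (minus) for Dnah6, chr10:67560209-67560508 (minus) for Arid5b and chr2:165206656-165206955 (minus) for Zfp334.
Snrpn: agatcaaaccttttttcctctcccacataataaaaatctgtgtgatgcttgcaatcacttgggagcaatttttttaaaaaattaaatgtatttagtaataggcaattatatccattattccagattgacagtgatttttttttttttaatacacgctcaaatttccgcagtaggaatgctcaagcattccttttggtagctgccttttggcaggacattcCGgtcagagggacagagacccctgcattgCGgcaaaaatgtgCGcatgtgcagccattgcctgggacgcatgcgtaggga
Dnajc5g: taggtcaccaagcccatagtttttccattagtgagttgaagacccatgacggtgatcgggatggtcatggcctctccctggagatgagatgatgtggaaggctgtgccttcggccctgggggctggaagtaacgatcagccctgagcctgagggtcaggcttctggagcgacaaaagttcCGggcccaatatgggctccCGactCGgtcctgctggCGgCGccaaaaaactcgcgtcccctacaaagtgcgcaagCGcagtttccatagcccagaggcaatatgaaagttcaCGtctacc
Rpl39l: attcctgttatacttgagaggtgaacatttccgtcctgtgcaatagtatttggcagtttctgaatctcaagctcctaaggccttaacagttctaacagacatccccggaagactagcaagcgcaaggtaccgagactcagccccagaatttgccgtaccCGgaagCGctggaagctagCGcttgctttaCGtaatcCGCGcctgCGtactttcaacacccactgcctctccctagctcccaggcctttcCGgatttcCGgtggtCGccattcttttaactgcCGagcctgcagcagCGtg
Nlrp5: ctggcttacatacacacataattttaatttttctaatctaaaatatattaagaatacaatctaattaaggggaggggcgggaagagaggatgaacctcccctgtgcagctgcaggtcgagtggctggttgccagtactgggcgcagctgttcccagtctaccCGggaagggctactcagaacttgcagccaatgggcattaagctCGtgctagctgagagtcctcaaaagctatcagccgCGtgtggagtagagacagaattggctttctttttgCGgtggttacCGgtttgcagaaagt
Slc6a9: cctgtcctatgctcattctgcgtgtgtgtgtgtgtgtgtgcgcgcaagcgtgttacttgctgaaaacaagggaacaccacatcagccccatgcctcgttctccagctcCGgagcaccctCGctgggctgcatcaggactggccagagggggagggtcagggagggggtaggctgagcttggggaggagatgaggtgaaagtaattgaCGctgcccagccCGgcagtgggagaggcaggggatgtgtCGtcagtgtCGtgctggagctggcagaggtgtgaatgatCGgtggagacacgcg
Dnah6: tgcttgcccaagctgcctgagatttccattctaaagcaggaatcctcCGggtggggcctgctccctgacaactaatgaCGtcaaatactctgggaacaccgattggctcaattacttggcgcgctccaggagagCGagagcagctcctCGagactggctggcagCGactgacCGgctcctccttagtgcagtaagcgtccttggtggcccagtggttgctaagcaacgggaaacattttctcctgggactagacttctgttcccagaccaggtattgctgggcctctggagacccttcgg
Arid5b: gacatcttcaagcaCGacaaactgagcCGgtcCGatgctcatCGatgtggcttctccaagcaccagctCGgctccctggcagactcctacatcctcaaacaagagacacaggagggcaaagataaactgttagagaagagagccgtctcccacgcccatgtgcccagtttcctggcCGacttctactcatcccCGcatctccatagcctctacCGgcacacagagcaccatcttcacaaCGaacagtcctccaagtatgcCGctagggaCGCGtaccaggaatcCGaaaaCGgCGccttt
Zfp334: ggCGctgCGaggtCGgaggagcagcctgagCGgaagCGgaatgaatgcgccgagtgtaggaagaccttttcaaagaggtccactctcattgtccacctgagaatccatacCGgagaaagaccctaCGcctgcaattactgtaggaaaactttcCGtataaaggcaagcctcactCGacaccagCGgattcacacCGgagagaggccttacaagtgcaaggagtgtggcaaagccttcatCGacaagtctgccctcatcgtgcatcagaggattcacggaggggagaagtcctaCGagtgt

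In the Arid5b window 15 of 17 CpGs were measured, over 27 cytosines. They ran from 0% to 9.09% in late diploid ESCs, against 44.5% to 89.3% in early diploid ESCs. No cytosine there kept a level near its early one. The Zfp334 window was less even, with its 26 cytosines at 5.37% to 45.2% in late cells and 33.0% to 92.9% in early cells. The 13 cytosines of the Dnajc5g promoter ran from 2.23% to 11.6% in late cells, and from 51.1% to 77.5% in early cells. The promoters of Rpl39l, a ribosomal protein paralog, and of Nlrp5, an egg protein, ran from 3.54% to 22.4% and from 2.31% to 13.5% in late cells, and from 25.1% to 71.4% and from 39.3% to 81.9% in early cells. The Slc6a9 promoter ran from 5.41% to 21.6% in late and 54.98% to 85.2% in early cells, and its mean was 43.7% in the BM, 39.6% in the BP and 48.5% in the WT embryo. It was thus lower in every embryo than the 70.4% of early diploid ESCs. The Dnah6 promoter, with 9 cytosines, was at a mean of 1.45% in late and 59.96% in early diploid ESCs. Unlike the Arid5b and Zfp334 windows, this window was low in tissue. It was at 15.9% in the BM, 34.9% in the BP and 4.21% in the WT embryo. It was at 1.39% in the BM E19.5 brain and 3.39% in the WT adult brain. All 9 cytosines reached the 20% for keeping in the BP embryo, and none did in the WT embryo. The higher BP level thus follows in part from the rule. The whole Dnah6 tile, over 15 cytosines, was higher, with 38.2% in the BM, 50.6% in the BP and 25.2% in the WT embryo. It was at 24.8% in the BM E19.5 brain and 24.1% in the WT adult brain.

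**Figure D1:**
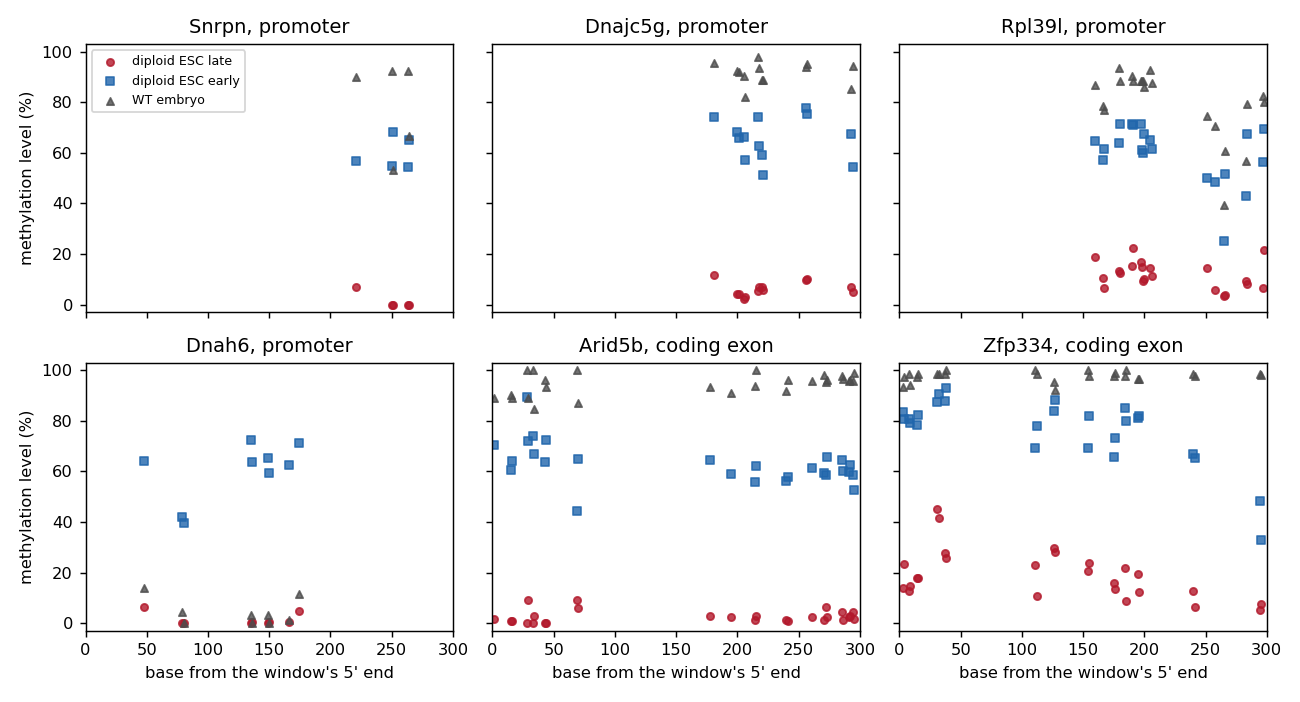
Methylation level of each kept cytosine (y axis, percent) in 6 windows of 300 bases against its distance from the 5′ end of the window (x axis, bases) in late diploid ESCs, early diploid ESCs and the WT embryo. In Arid5b the late values do not exceed 9.09% and the early values start at 44.5%, and in Dnah6 the WT embryo lies with the late cells.

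Because the thresholds chose the members, their diploid ESC levels are a description. All members fell by 25 points or more by construction, as did 83.3% of all measured tiles, while 0.0239% of tiles were higher late. The median member stood at 12.5% in late and 70.3% in early diploid ESCs, against 34.8% late and 83.1% early for the other 32661 tiles that were high early. Members therefore ended lower and also began lower. Of the 13728 member cytosines, 71.3% were at 15% or less in late cells, 4.63% were at exactly 0% and 0.342% stayed at 40% or more, against 10.4%, 0.586% and 37.9% of cytosines in the other tiles. The rule has no natural gap at its edges: 616 members lay at 13% to 15% late, and 846 tiles just missed with up to 17%. At the early edge 181 members lay within 2 points above 60%, and 170 tiles with low late values lay within 2 points below it.

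When tiles were chosen on every other kept cytosine, the cytosines between them could be read separately, although they often sit on the opposite strand of the same CpG and share reads. In the 540 tiles chosen that way with at least 5 cytosines left, the unused cytosines had a median of 12.7% in late and 69.2% in early cells, and 334 tiles (61.9%) met both thresholds again. The other tiles high early stood at 33.3% late on their unused cytosines, and 1.84% of them met both thresholds.

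Most members had no measured neighbour. Of the 294 neighbouring tiles measured beside members 50 were members, which makes 25 pairs and no longer run, whereas 151 of the 5893 neighbours of other tiles were. Among neighbours at 60% or more early, the median late level was 22.8% beside members and 35.2% beside other tiles. These were 204 and 4971 neighbours, and they include the 50 and 151 that were themselves members. The rule puts every member low in late cells, so the lower median beside members follows in part from the rule. The late level of neighbours that were not members was not tested separately. The share of tiles high early that were members ran from 3.34% on chromosome 18 to 6.03% on chromosome 3.

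By gene structure, members looked much like the other tiles, apart from gene starts. A placed exon overlapped 33.6% of members and 30.2% of other tiles, and a placed gene span overlapped 49.0% and 49.9%. First exons overlapped 13.4% of members, against 7.14% of other tiles and 9.98% of all measured tiles. A promoter window touched 33 members, or 2.23%, against 1.10% of other tiles and 2.18% of all. The promoter share of members was thus near that of all measured tiles, and differed from that of the other tiles only. The 36 placed promoters in member tiles had a median of 10.5 CpGs in 300 bases, against 7 for the 375 in other tiles and 23 for all 12750 placed promoters. Member promoters thus lay between those groups in CpG density. These shares depend on which sequences could be placed and were not tested.

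Over the 11 gene lists, members were found in few genes each, set against 738 of 7997 placed genes with a tile high early (9.23%). The imprinted list had 7 of 21 (Cdh15, Commd1, Grb10, Meg3, Peg13, Snrpn and Zrsr1), of which Commd1 and Zrsr1 share 1 tile. Synaptic and neuronal adhesion genes had 7 of 37, among them Shank2, a postsynaptic scaffold. Collagen and matrix genes had 5 of 35, signalling genes of the Notch, Wnt and Hedgehog pathways 4 of 32, and enzymes and cofactors of DNA methylation 2 of 11. Germline genes had 1 of 13 (Tdrd6), lineage regulators 1 of 10 (Sox10), clustered protocadherins 1 of 15, voltage-gated ion channels 0 of 29, Hox genes 0 of 2 and pluripotency genes 0 of 1.

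Within the methylation machinery, the member in a coding exon of Tet1, the dioxygenase that oxidises methylcytosine, covered 12 cytosines. Its level was 6.72% in late and 64.7% in early diploid ESCs, 24.99% in late and 71.2% in early ahESCs, and 94.8% in the WT embryo. Fzd9, a Wnt receptor, was at 11.3% in late and 61.8% in early diploid ESCs over 30 cytosines, and differed between WT adult brain (41.1%) and WT embryo (68.1%). Fzd9 was at 21.1% in late and 59.5% in early ahESCs. Both tiles were thus lower late than early in the diploid and the ahESC libraries.

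Across the ESC libraries, the early levels of members were close in diploid cells and ahESCs and already low in phESCs. Medians were 19.9% in late and 69.2% in early ahESCs, 23.3% in late and 28.3% in early phESCs, and 12.5% in late and 70.3% in early diploid ESCs. Early ahESCs were at 60% or more in 1202 of 1442 members (83.4%), against 96.9% of the other tiles high early and 73.2% of all measured tiles, and early phESCs at 15% or less in 69 of 1425 (4.84%), against 0.0406% of the other tiles high early and 11.5% of all. The late phESC library had 5 or more cytosines in just 543 members, and the late ahESC one in 1218. Of the 522 members measured in all 6 ESC libraries, late diploid ESCs were the lowest in 450, which the rule itself favours.

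**Figure D2:**
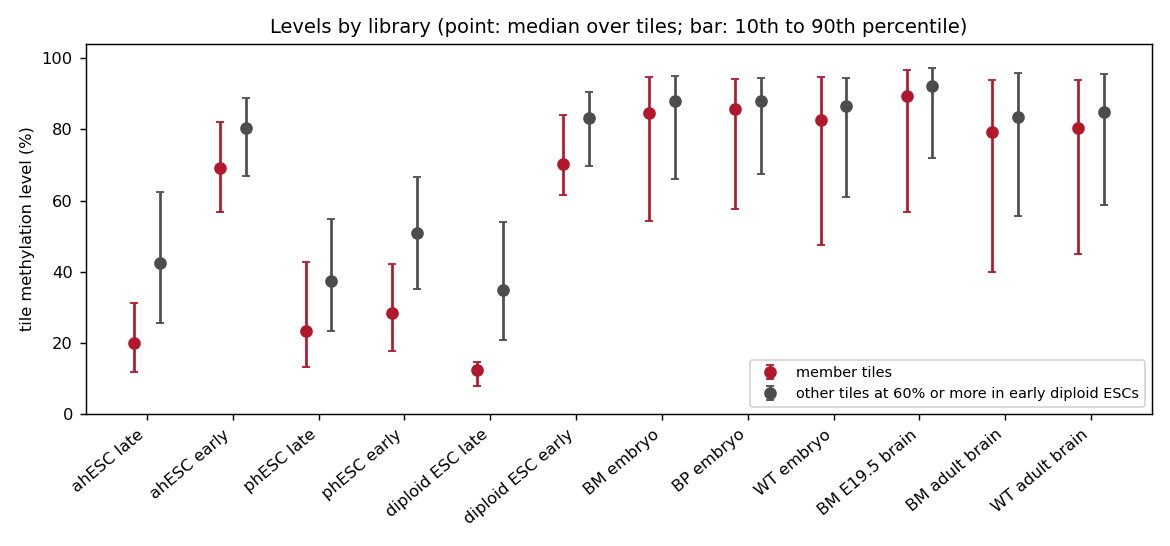
Tile methylation level (y axis, percent) in the 12 libraries (x axis) for member tiles and for the other tiles at 60% or more in early diploid ESCs; points are medians over tiles and bars span the 10th to 90th percentile, not an error. Members sit at 19.9% in late and 69.2% in early ahESCs, and at 28.3% in early phESCs.

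Members were also lower at late than at early passage in ahESCs. On cytosines measured in both libraries, 1168 of 1193 members (97.9%) were lower by 25 points or more in late than in early ahESCs, where 68.7% of all measured tiles and 82.3% of the other tiles high early were. No member was higher by 25 points, against 0.0364% of all tiles. The median difference, late minus early, was -47.97 points in members and -35.35 in the other tiles. Late ahESCs met the rule's late threshold in part of the members: 278 of 1218 members (22.8%, 95% exact binomial interval 20.5% to 25.3%, counting error only) stood at 15% or less in late ahESCs, against 0.679% of other tiles and 13.4% of all measured tiles. In 42 of 1218 members late ahESCs were at least 25 points above late diploid ESCs (3.45%, with 1.65% of all tiles as background).

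Some members kept methylation in late ahESCs. The coding exon of Dyrk3, a protein kinase, with 46 kept cytosines, was at 60.6% in late and 88.8% in early ahESCs, 45.0% in late and 27.2% in early phESCs, and 13.1% in late and 73.6% in early diploid ESCs. Polrmt, the mitochondrial RNA polymerase, was at 58.1% in late and 82.4% in early ahESCs, and 14.6% in late and 77.0% in early diploid ESCs. A tile outside placed genes at chr5:105203001-105204000 ran the other way, with 58.5% in late and 34.3% in early ahESCs. The whole Arid5b tile, over 41 cytosines, was lower, with 11.4% in late and 73.0% in early ahESCs.

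In phESCs members were low at early passage, and their levels moved little between the passages. Early phESCs were lower than early diploid ESCs by 25 points or more in 97.1% of 1425 members, against 63.2% of all measured tiles and 77.2% of the other tiles high early. Early ahESCs were lower than early diploid ESCs by that margin in 17 of 1442 members (1.18%, background 0.303%). The early diploid levels were part of the rule too, which limits what these counts show. Between late and early phESCs, 4 of 530 members were lower and 11 higher by 25 points (0.755% and 2.08%). The backgrounds in all tiles were 3.4% and 0.164%. The median difference was -3.47 points in members, -9.02 in the other tiles high early and -6.41 in all measured tiles. Small movement in phESCs was thus not particular to members. Late phESCs were at 15% or less in 85 of 543 members (15.7%, 95% interval 12.7% to 18.99%), against 1.24% of other tiles and 21.2% of all. They stood at least 25 points above late diploid ESCs in 90 of 543 members (16.6%, background 2.09%). Late diploid levels chose the members, so other libraries tend to stand above them, and nothing is read from the counts against late diploid ESCs. Several of these comparisons share a library, so they are not independent of each other. The late phESC library covers few cytosines, and the part of coverage in these counts was not tested.

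**Figure D3:**
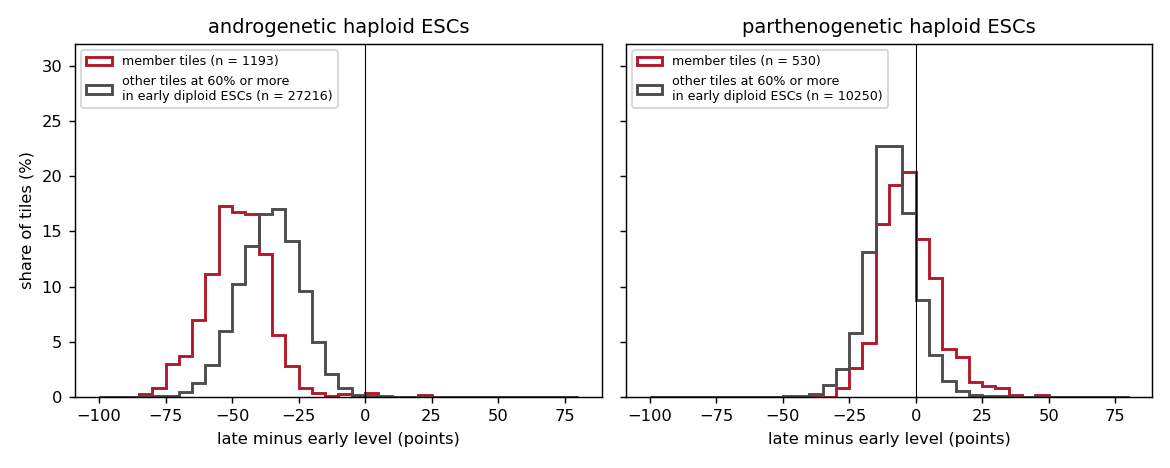
Share of tiles (y axis, percent) by the late minus early difference in level (x axis, points) in ahESCs and phESCs, for member tiles and the other tiles at 60% or more in early diploid ESCs. The members' median is -47.97 points in ahESCs and -3.47 in phESCs, against -35.35 and -9.02 in the other tiles.

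The CpG at the MspI cut site, CCGG, read differently from other CpGs in some libraries. Of the 13728 member cytosines 4890 lay in placed sequence, and 99.8% of those were in CpG. In members, cytosines of CCGG averaged 58.5% against 81.2% for other CpGs in the BM adult brain, and 62.9% against 81.2% in the WT adult brain, whereas the difference ran from 0.304 to 13.9 points above other CpGs in the remaining 10 libraries. The late phESC library had 32 CCGG cytosines with a value, against 2515 others. Outside CCGG, members averaged 18.7% in late and 66.3% in early ahESCs, 22.6% in late and 23.0% in early phESCs, and 10.4% in late and 67.2% in early diploid ESCs.

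A set of members stood apart by the spacing of their listed positions. A total of 73 members (4.93%) shared at least 1 run of 20 consecutive spacings, read in either direction, with each of 10 or more tiles high early, against 668 of the other tiles (2.05%). The run length was chosen after values were seen, and of the other settings looked at, 15 spacings gave 8.91% and 5.03%, 25 spacings gave 2.63% and 0.79%, 10 spacings gave 40.04% and 33.4%, and 10 spacings shared with 100 tiles gave 11.2% and 6.73%. Among distances of 100 to 600 bases between listed positions of a tile, the most frequent in the 73 was 208 bases. They had a median of 97 listed positions, against 32 in members without such a run, and a tile with more positions has more chances to share one. Only 4 of the 73 lay in a placed gene span. Recurring spacing is what copies of one repeated sequence would give, reads of such copies may not be told apart, and no repeat annotation was used here.

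These 73 members were more methylated than the rest in every library named here but late ahESCs and late diploid ESCs. Their medians were 18.2% in late and 86.2% in early ahESCs, 46.1% in late and 56.8% in early phESCs, and 11.4% in late and 89.4% in early diploid ESCs. The 1408 members without a run were at 19.99% and 68.7%, 22.5% and 27.9%, and 12.5% and 69.7% in the same libraries. The 668 other tiles with a run were at 37.2% in late and 52.5% in early phESCs and at 30.2% in late and 83.9% in early diploid ESCs, so high levels in early phESCs were not particular to the 73. All 37 members at 60% or more in early phESCs had a median of 91.8% in early diploid ESCs and 9.33% in late ones, and 26 of them shared such a run. At chr5:53293001-53294000, with 12 cytosines, the level was 10.2% in late and 89.4% in early ahESCs, 66.0% in late and 63.7% in early phESCs, and 2.07% in late and 90.9% in early diploid ESCs.

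**Figure D4:**
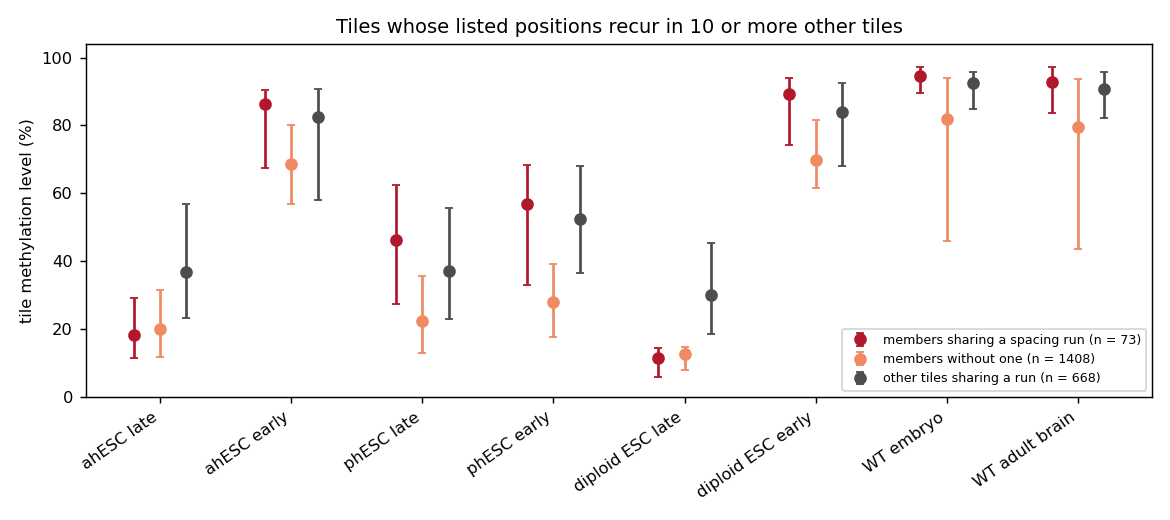
Tile methylation level (y axis, percent) in 8 libraries (x axis) for the 73 members that share spacing runs with 10 or more tiles, the 1408 other members and the 668 other tiles with such a run; points are medians and bars the 10th to 90th percentile over tiles. The 73 members are at 46.1% in late and 56.8% in early phESCs and at 11.4% in late diploid ESCs.

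Grb10, an imprinted adaptor of growth factor receptors, was measured over 43 cytosines. It was at 3.19% in late and 1.80% in early ahESCs, 5.04% in late and 2.05% in early phESCs, and 1.22% in late and 63.1% in early diploid ESCs. It stood at 69.0% in the BM embryo, with 67.2% for the WT embryo. Early diploid ESCs were thus the only high ESC library at Grb10.

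Peg13, an imprinted noncoding RNA, was likewise high in no ESC library but early diploid ESCs, over 39 cytosines. It was at 8.45% in late and 4.16% in early ahESCs, 8.27% in late and 1.57% in early phESCs, and 1.78% in late and 63.1% in early diploid ESCs. The embryos were at 58.3% (BM), 30.1% (BP) and 61.4% (WT). At the tile of Zrsr1, an imprinted splicing factor gene inside Commd1, late and early ahESCs were at 5.30% and 8.27%, and early phESCs at 2.79%. The BM, BP and WT embryos were at 84.3%, 30.1% and 68.8% there.

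The Snrpn tile, whose promoter is shown above, was at 3.10% in late and 2.59% in early ahESCs. The tile was at 0.439% in late and 0.682% in early phESCs, and at 0.982% in late and 60.2% in early diploid ESCs. It was the 1 of 1322 members lower by 25 points in the BM than in the WT embryo (29.0% and 77.6%, background 0.05%). These means blend unlike readings of the strands. Bases 264 and 263 of the Snrpn window, both strands of the same CpG, were at 60% and 6.06% in the BM embryo. They were at 66.7% and 92.2% in the WT embryo and at 65.7% and 0% in WT adult brain. Bases 251 and 250 differed likewise, and the reason was not tested. Gm44296, a predicted gene, was at 3.64% in the BP and 62.6% in the WT embryo. Meg3, an imprinted noncoding RNA, and Cdh15, a cadherin gene, did not show low early ahESC levels, with 72.6% and 82.3%. Whether any of these tiles lies in a deleted region cannot be told from the labels, and such a tile would be read from the remaining copy alone in BM or BP samples.

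**Figure D5:**
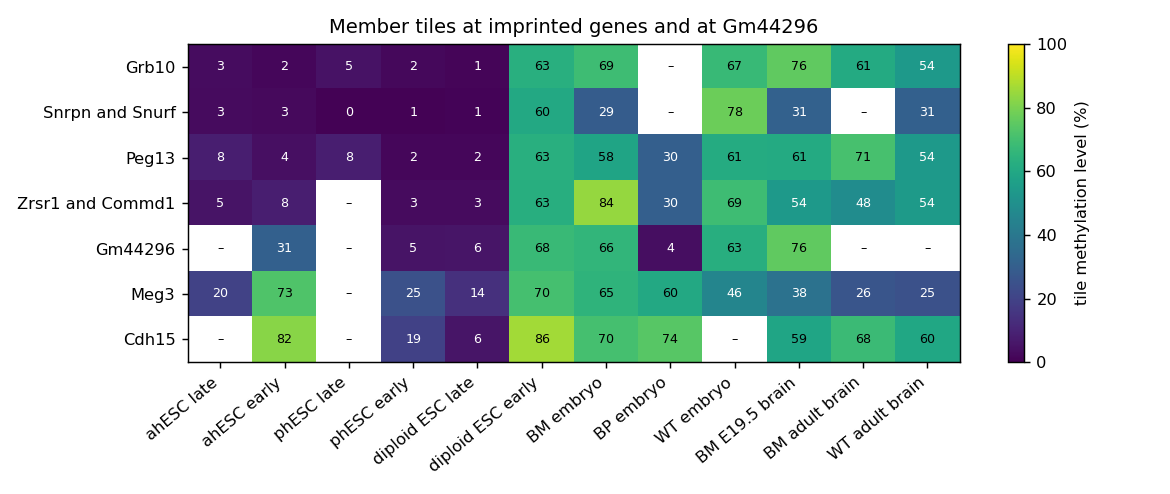
Tile methylation level (colour and printed values, percent) of 7 member tiles (rows) in the 12 libraries (columns), with a dash where fewer than 5 cytosines had a value. Grb10, Snrpn, Peg13 and Zrsr1 are low in both ahESC libraries and in early phESCs. Meg3 is at 72.6% and Cdh15 at 82.3% in early ahESCs.

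In embryos and brains most members were highly methylated, as were most measured tiles. Medians were 84.7% in the BM, 85.6% in the BP and 82.8% in the WT embryo. They were 89.5% in the BM E19.5, 79.3% in the BM adult and 80.4% in the WT adult brain. All measured tiles had medians of 85.75%, 85.9% and 83.8% in these embryos and 90.4%, 80.7% and 82.3% in these brains. High levels in tissue are thus no result about members. The kept cytosines were chosen to reach 20% in an embryo, so high embryo levels follow in part from the rule. The WT embryo was at 60% or more in 1133 of 1366 members (82.9%), against 90.6% of other tiles and 81.4% of all measured tiles. WT adult brain was at 60% or more in 949 of 1192 members (79.6%, 95% interval 77.2% to 81.9%), against 89.2% of other tiles and 81.8% of all measured tiles. On CpGs in placed sequence outside CCGG, which gave 406 members, the share was 87.3%. That setting also changed the members, so the part of the lower CCGG values of adult brain in this share was not tested separately.

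Few members differed by 25 points or more between uniparental and WT tissue, but in embryos their shares exceeded those of all measured tiles. The BM embryo was at least 25 points above the WT embryo in 20 of 1322 members (1.51%, background 0.746%), and the BP embryo in 50 of 1224 (4.08%, background 1.69%). The BP embryo was lower in 6 of 1224 (0.49%, background 0.257%), among them the tiles of Zrsr1, Peg13 and Gm44296. In adult brain the BM library was 25 points below the WT library in 1 and above it in 0 of 936 members (0.107%, 95% interval 0.0027% to 0.594%, background 0.0578% lower and 0.0136% higher). That tile, at chr10:114229001-114230000 outside placed genes, was at 46.4% in the BM and 71.5% in the WT adult brain.

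The members higher in uniparental embryos included exons of Igsf3, an immunoglobulin superfamily gene, where 2 neighbouring members were at 84.4% and 84.0% in the BM, 88.7% and 82.5% in the BP and 50.2% and 47.9% in the WT embryo. Spen, a transcriptional repressor, was at 72.5% in the BM, 80.3% in the BP and 42.3% in the WT embryo, and at 25.4% in the WT adult brain. Both groups of embryos were above the WT embryo at these tiles.

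By age and tissue, BM adult brain was lower than BM E19.5 brain by 25 points in 69 of 846 members (8.16%, background 7.65%) and higher in 2 (0.236%, background 0.113%), and the CCGG values above move with both comparisons of adult brain here. WT adult brain was lower than the WT embryo in 53 of 1131 members (4.69%, background 3.06%) and higher in 26 (2.30%, background 2.93%). BM E19.5 brain was higher than the BM embryo in 27 of 1329 members and lower in 19 (2.03% and 1.43%, background 3.3% and 0.615%). The shares lower in BM adult than in BM E19.5 brain, and higher in WT adult brain than in the WT embryo, were near their backgrounds and are no result about members.

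Single tiles still differed widely between tissues. Apbb1, an adaptor that binds the amyloid precursor protein, was at 31.3% in the BM adult and 86.5% in the BM E19.5 brain. Kcna3, a potassium channel gene outside the ion channel list, was at 26.9% in WT adult brain and 65.7% in the WT embryo. Cdh22, a cadherin of the brain, ran the other way, with 68.8% in WT adult brain and 12.1% in the WT embryo. A coding exon of Dlg2, a postsynaptic scaffold gene, was at 18.3% in the BM, 40.1% in the BP and 23.3% in the WT embryo, and at 11.5% in both adult brains. CCGG cytosines were lower than other CpGs in both adult brain libraries over the members, and their part in the values of single tiles was not tested. The tiles of Igsf3, Spen, Apbb1 and Kcna3 were chosen for these differences after their values were seen.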

How the data were processed

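The authors deposited 1 table of methylation percent per cytosine (0 to 100) for 12 RRBS libraries, made with Trim Galore and Bismark 0.13.1 on mm9, per the submitters' processing notes. It lists 7811806 autosomal positions, bases of CG and GC, without coverage, so depth is unknown. Values were averaged in fixed 1 kb tiles over 621549 kept cytosines, and levels needed 5 cytosines in a library. Pairs of libraries used cytosines measured in both, and 25 points counted as a difference. Of 83324 exon sequences with at least 8 listed positions 99.2% were placed, and 3 fitted at a false shift of 2017 bases. Genes outside placed sequence go unnamed. Named tiles follow a rule (most cytosines, the 5 highest and lowest per library, members in listed genes), apart from those shown for their sequence or for a difference of 25 points. Members and lists were chosen with earlier results of these data known. The tile rule was tested on simulated data. Intervals are Clopper-Pearson and cover counting only. Calculations used NumPy 2.4.6 and pandas 2.3.3 under Python 3.11.15, with intervals from SciPy 1.17.1 and plots from Matplotlib 3.10.9.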

Additional observations from a re-analysis of the deposited data

Results flagged for a closer look

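In 11 of 530 members phESCs were higher at late than at early passage by 25 points or more, as were 0.164% of all measured tiles. Diploid ESCs fell in every member by the rule, and the difference between the cell types was not tested. The late minus early differences in phESCs were 48.2 points at chr7:70947001-70948000, 36.9 at chr9:22187001-22188000 (Anln, an actin-binding protein of cell division), 34.96 at chr10:67555001-67556000 (Arid5b), 32.7 at chr6:142911001-142912000 (St8sia1, a sialyltransferase) and 32.4 at chr9:110868001-110869000. They were 30.1 at chr18:75407001-75408000, 28.8 at chr10:25172001-25173000 (Epb41l2), 28.7 at chr7:86047001-86048000 (Aen), 28.2 at chr13:111406001-111407000, 26.6 at chr3:129298001-129299000 (Elovl6) and 25.1 at chr7:31370001-31371000 (Kmt2b). The first of them stood at 50.02% in late and 3.18% in early phESCs, over 9 cytosines in the late library, at 4.18% in late and 84.6% in early ahESCs, and at 2.37% in late and 87.8% in early diploid ESCs.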

How the results depend on the processing

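With 1 library per group no replicate could be left out. No paired analysis was possible because no result comes from a test. The number of members was 500 with at least 10 cytosines per tile, 154 at thresholds of 70% and 10%, and 6024 at 50% and 20%, against 1481. It was 607 when chosen on every other cytosine and 406 on CpGs in placed sequence outside CCGG. For the same settings the share at 15% or less in late ahESCs was 27.1%, 17.6%, 34.3%, 29.0% and 35.1%, and 34.0% with tile medians. For late phESCs it was 1.85% at 70% and 10%, 35.4% at 50% and 20% and 11.2% outside CCGG. The share at 60% or more in WT adult brain was 85.4% when cytosines were kept from 50%, 83.1% with 10 cytosines, 84.4% at 70% and 10%, 85.02% at 50% and 20%, 82.1% on every other cytosine and 87.3% outside CCGG. No member differed between BM and WT adult brain (0%) with 10 cytosines, at 70% and 10%, on every other cytosine or outside CCGG, while 6 of 1358 (0.442%) did with tile medians. Where thresholds moved, the share used the moved thresholds too. The setting outside CCGG used placed sequence only, where 4890 of the 13728 member cytosines lay, so its values mix both restrictions. That setting and one without tiles sharing a spacing run were chosen after seeing the data. Missing coverage limits every single-cytosine value.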
